A study of Homo sapiens with 6 samples.

Results

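The genes described here are 33 named genes of the NRF2 pathway and of antioxidant defence, found by name among the 57316 gene names of each count file. All 33 were present, and 31 of them had enough reads to be tested between groups. They were measured in THP-1, a human monocytic leukaemia line, which had received the phorbol ester PMA at 100 ng/ml for 48 h so that the cells took on macrophage features. The control group (3 libraries) was then kept for 24 h with a control solution, and the CXCL10 group (3 libraries) for the same 24 h with the recombinant human form of CXCL10, a chemokine ligand of the receptor CXCR3, at 100 ng/ml. Both groups thus carry the PMA treatment, both come from a single cell line, and the libraries are numbered 1, 3 and 4 in each group. The labels leave unsaid whether the numbered libraries came from separate cultures. The p-values therefore reflect only how these libraries spread, which may be technical.

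NRF2, encoded by NFE2L2, is a transcription factor that is held at a low level by KEAP1, an adaptor that hands it to a CUL3 and RBX1 ubiquitin ligase for degradation. Oxidants and electrophiles modify cysteines of KEAP1, NRF2 then escapes, pairs with small MAF proteins and binds antioxidant response elements near genes that make glutathione, reduce thioredoxin, supply NADPH and detoxify quinones. Macrophages produce superoxide with their phagocyte oxidase, and superoxide dismutases, catalase, glutathione peroxidases and peroxiredoxins remove it and the peroxides formed from it.

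The core antioxidant response element, searched as TGACNNNGC on both strands, is the sequence through which this pathway is read. RefSeq promoters (GRCh38.p14, from 250 bases before to 50 bases after a gene's start) were matched for 25 of the 33 genes. The element was present in a promoter of 4 of these 25 genes (16%), and in 16.1% of the 27305 genes in the table. The windows below show the element in capitals with 10 bases on each side, 5′ to 3′ on the gene's strand, because they are the places where the letters read by the factor occur close to a start among these genes.
GCLM (chr1:93909446-93909474, minus strand): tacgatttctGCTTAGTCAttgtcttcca
TXNRD1, upstream start (chr12:104215670-104215698, plus strand): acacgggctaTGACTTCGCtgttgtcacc
TXNRD1, downstream start (chr12:104286920-104286948, plus strand): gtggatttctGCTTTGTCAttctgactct
PGD (chr1:10398853-10398881, plus strand): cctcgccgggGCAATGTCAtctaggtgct
KEAP1 (chr19:10502807-10502835, minus strand): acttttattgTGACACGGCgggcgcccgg
KEAP1 (chr19:10502784-10502812, minus strand): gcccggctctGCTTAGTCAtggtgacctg
In the windows of GCLM, PGD, the downstream start of TXNRD1 and the second of KEAP1 the element reads in the opposite orientation, so its letters appear as GCNNNGTCA. The same letters stand before the start of GCLM and of KEAP1 (GCTTAGTCA), at 34 and 31 bases upstream. TXNRD1 held a further match 8 bases before its upstream start. A match is a description of letters, and elements outside these windows were not searched.

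Libraries held between 34.8 M and 41 M counted reads. Of 12 monocyte and macrophage markers, 10 stood at 5 CPM (the read count scaled to library size) or more in every library. The exceptions were MRC1 and CD68, and 85.6% of the exon length of CD68 is shared with other annotated genes, reads over which were not counted. Of 25 markers of other cell types (TRAC set aside), none exceeded 3.37 CPM in any library and 6 had no reads at all. Control replicate 4 stood apart from the other libraries. Ribosomal protein genes took 11.8% of its reads, against 8.92% to 9.08% in the other controls and 7.07% to 8.83% with CXCL10. Relative to the mean of all libraries, the shortest 10% of tested genes averaged 0.14 on the log2 scale in control replicate 4 and from -0.07 to 0.06 elsewhere, and the longest 10% averaged -0.12 there, against 0.22 in CXCL10 replicate 3 and -0.07 to 0.04 in the others. In whole-culture RNA, fewer cells of one kind and less RNA per cell cannot be told apart.

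Across the antioxidant genes no transcript passed the test between CXCL10 and control. With edgeR's quasi-likelihood test and Benjamini-Hochberg adjustment, 0 of 31 tested members were called, beside 0% of all 16531 tested genes, and the lowest adjusted p among the members was 0.683. At an unadjusted p under 0.05, 6 members were lower with CXCL10 (4.65% of all genes were) and 0 were higher (2.5% of all genes were). These 6 were SOD1, TXN, GPX4, OSGIN1, PRDX4 and GPX1. Without control replicate 4 the count was 0 lower (1.59% of all genes) and 0 higher (2.2%). It was 1 without CXCL10 replicate 3 (1.95% of all genes), 2 without CXCL10 replicate 4 (1.98%), and 11 without CXCL10 replicate 1 (7.01%). It stayed at 6 without control replicate 1 (4.27%) and without control replicate 3 (5.12%), with NQO1 in place of OSGIN1 in both. The members' median log2 fold change was -0.154, with 21 of 31 below 0, beside a median of 0.023 and 46% below 0 over all genes. Leaving out control replicate 4 gave a median of -0.094 with 22 of 31 below 0, beside 0.017 and 47% over all genes. With all libraries, the 95% interval of 27 of 31 members stayed within -1 to 1 on the log2 scale. The wider ones belonged to OSGIN1 and the barely expressed AKR1C1, AKR1C2 and AKR1C3.

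**Figure D1:**
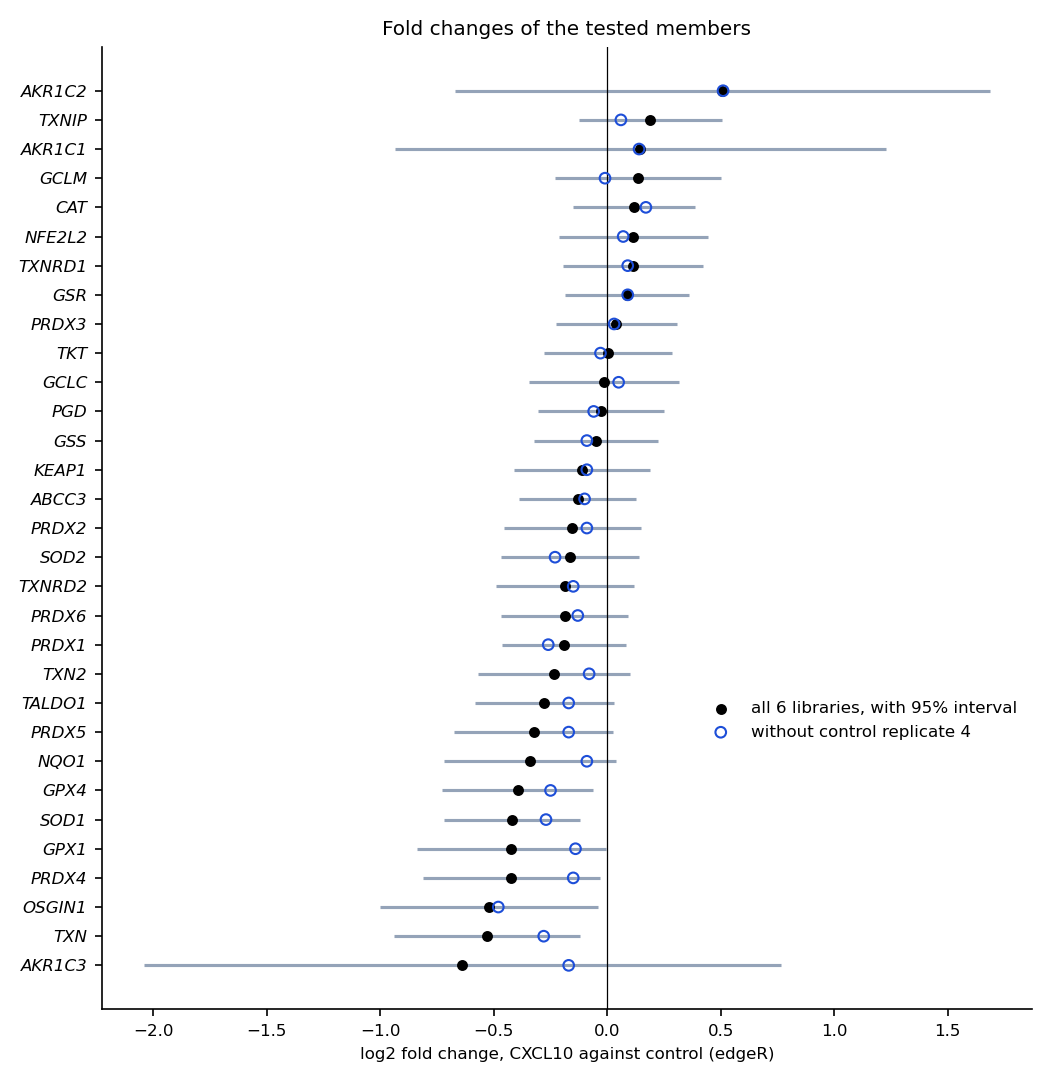
Log2 fold change of each tested member, CXCL10 against control, with its 95% interval from edgeR over all 6 libraries (black points and grey lines), and the estimate without control replicate 4 (open blue circles). With all libraries 21 of 31 points lie below 0, and for TXN, GPX1, PRDX4 and NQO1 the blue circles lie nearer to 0.

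The transcripts spanned more than 4 orders of magnitude per unit length, measured as CPM per kb of annotated exon averaged over all libraries (the length is the union of all annotated exons, which lowers genes with long alternative exons such as SOD2). GPX1, the abundant selenium-dependent glutathione peroxidase, was the highest at 1335 CPM per kb. TXN, the cytosolic thioredoxin that reduces protein disulphides, followed at 395, and PRDX6 (a peroxiredoxin that uses glutathione) at 228. TXNIP, the inhibitor of thioredoxin, stood at 216, beside PRDX1 at 179 and GPX4, which reduces lipid peroxides in membranes, at 176. The ranges over libraries of PRDX6, TXNIP, PRDX1 and GPX4 overlapped, so their order was not separated. The lowest library of TXN, CXCL10 replicate 3, also fell within the ranges of PRDX6 and TXNIP. NFE2L2 and KEAP1 stood at 19.3 and 28.7 CPM per kb, GCLM and TXNRD2 at 4.43 and 4.41, and OSGIN1 at 1.22. The aldo-keto reductases AKR1C1, AKR1C2 and AKR1C3 were all below 0.1 CPM per kb.

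**Figure D2:**
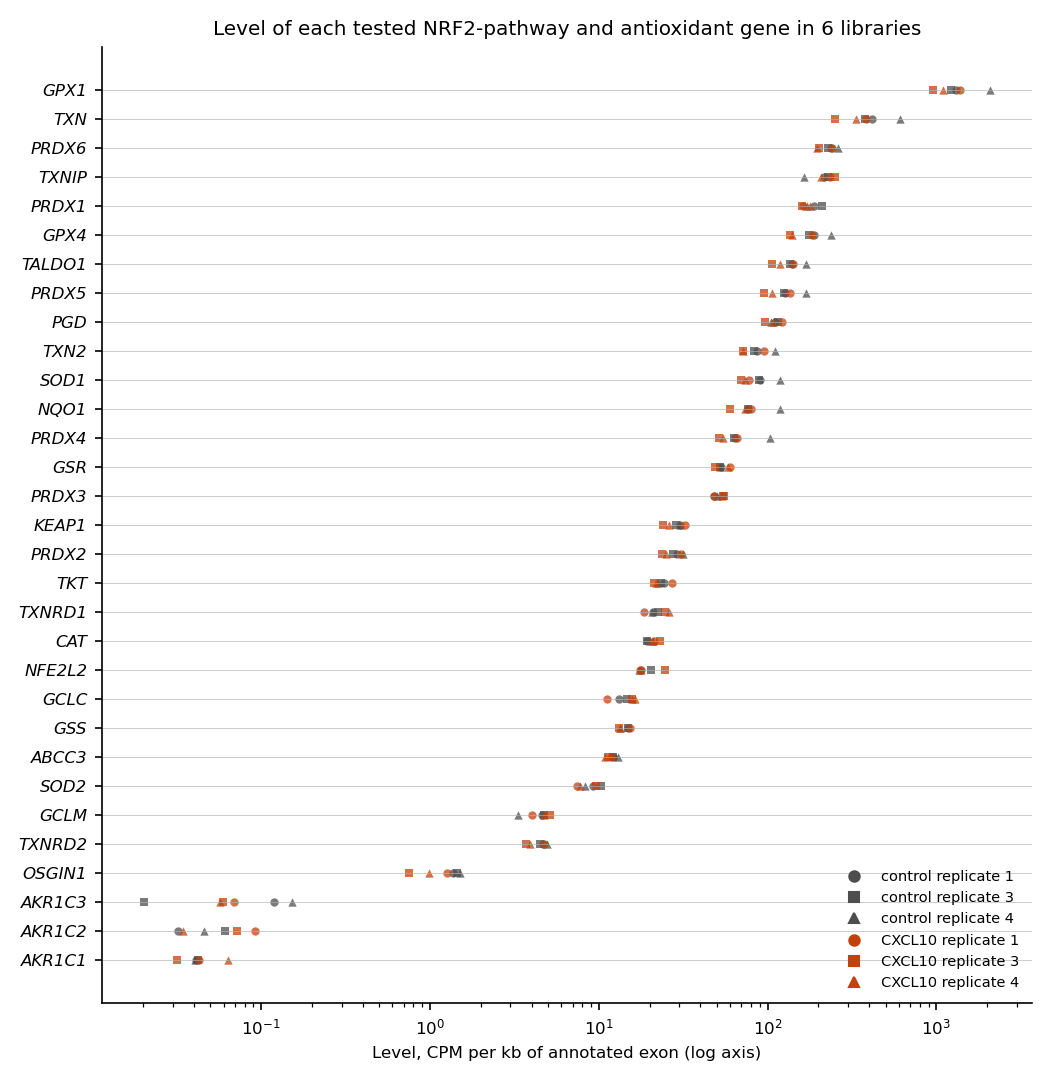
Level of each tested member in every library as CPM per kb of annotated exon on a log axis, grey for control and orange for CXCL10, with the marker shape giving the replicate number. GPX1 and TXN top the order, the 3 AKR1C genes lie below 0.2 in every library, and control replicate 4 is the highest point for most of the short genes.

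The factor and its sensor differed between groups by less than the spread of the libraries. NFE2L2 (chromosome 2, 177227595 to 177392697, hg38) measured 102, 115 and 97.6 CPM in control replicates 1, 3 and 4 and 99.2, 141 and 101 CPM in CXCL10 replicates 1, 3 and 4. CXCL10 replicate 3 was the highest library and the groups overlapped. Its log2 fold change was 0.12 ± 0.15 (SE, 95% interval -0.21 to 0.44) with an edgeR adjusted p of 0.886. Leaving out CXCL10 replicate 3 turned it to -0.06. Of its exon length, 21.9% is shared with neighbouring annotated genes, so its level is a lower estimate. KEAP1 (chromosome 19, 10486125 to 10503558) measured 108, 103 and 109 CPM in controls and 117, 85.7 and 93.2 CPM with CXCL10. The control libraries lay within a narrow band that the CXCL10 libraries straddled, and the log2 fold change was -0.11 ± 0.14 (interval -0.41 to 0.19). Leaving out CXCL10 replicate 1 gave -0.25 for KEAP1, and leaving out CXCL10 replicate 3 gave -0.01.

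Direct NRF2 targets that handle quinones, growth inhibition and efflux lay below 0 for all 3 tested genes, and none passed. NQO1, the quinone reductase that is the usual readout of NRF2 (chromosome 16, 69706996 to 69726668), measured 227, 228 and 353 CPM in controls and 239, 179 and 219 CPM with CXCL10. Control replicate 4 stood far above the other 5 libraries, and the other controls lay inside the CXCL10 range. The log2 fold change of NQO1 was -0.34 ± 0.18 (adjusted p = 0.702 by edgeR), and -0.09 without control replicate 4. Exons of NQO1 overlap a gene on the opposite strand over 19.4% of their length, and counting ignored strand. OSGIN1, an oxidative stress-induced growth inhibitor (chromosome 16, 83948282 to 83966332), measured 4.71, 4.97 and 5.20 CPM in controls and 4.37, 2.60 and 3.42 CPM with CXCL10. Every control lay above every CXCL10 library, at 112 to 188 reads each. The log2 fold change of OSGIN1 was -0.52 ± 0.22 (adjusted p = 0.683 by edgeR), -0.48 without control replicate 4, and -0.34 without CXCL10 replicate 3. Its unadjusted p by edgeR was 0.00884 without CXCL10 replicate 1, and from 0.0518 to 0.143 with any other single library left out. ABCC3, an efflux pump of conjugated organic anions, also did not overlap, from 117 to 124 CPM in controls and from 104 to 113 CPM with CXCL10, at a log2 fold change of -0.13 ± 0.12. With SOD1 these were the only tested members whose groups did not overlap, 3 lower (6.48% of all genes were) and 0 higher (5.76% of all genes were).

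SRXN1, the sulfiredoxin that restores over-oxidised peroxiredoxins, could not be measured. It had 0 to 4 reads per library, and 85.0% of its exon length (chromosome 20, 646615 to 653370) lies under another annotated gene, AL121758.1, on the same strand. Reads over both were left out of the deposited counts, and AL121758.1 itself had 0 or 1 reads in each library. The low SRXN1 count is therefore not a measure of its expression.

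The aldo-keto reductases, which reduce aldehydes, ketones and steroids and are strong NRF2 targets in epithelial cells, were close to undetected. AKR1B10 had no reads in control replicates 1 and 3, which allows up to 0.154 and 0.158 CPM (3 fragments, or 6 reads since both mates were counted, for counting error only), and 2 to 6 reads in the other libraries. AKR1C3 (chromosome 10, 5035354 to 5107686) measured 0.466, 0.0794 and 0.598 CPM in controls and 0.270, 0.232 and 0.224 CPM with CXCL10, from 3 to 20 reads. Its controls spread on both sides of the CXCL10 libraries, with a log2 fold change of -0.64 ± 0.65 that was -0.17 without control replicate 4 and -1.11 without control replicate 3. AKR1C1 and AKR1C2 had 8 to 22 reads per library. Of the 50-base stretches in their GENCODE 29 transcripts, 28.6% and 38.9% also occur in other genes, each other among them, and reads that fit several places were not counted.

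Genes of glutathione synthesis and recycling lay on both sides of 0, with 2 of 4 above it and a median log2 fold change of 0.037. GCLM, the modifier subunit of the rate-limiting glutamate-cysteine ligase and one of the genes whose promoter window is shown above (gene at chromosome 1, 93885199 to 93909456), measured 25.05, 25.7 and 17.97 CPM in controls and 21.98, 27.9 and 25.6 CPM with CXCL10. Control replicate 4 was its lowest library, and the log2 fold change of 0.14 ± 0.17 became -0.0092 without it. GCLC, the catalytic subunit, ranged from 97.4 to 141 CPM, with a log2 fold change of -0.01 ± 0.15. GSR, which reduces oxidised glutathione (chromosome 8, 30678066 to 30727846), was the highest of the group per length, at 192, 187 and 187 CPM in controls and 216, 175 and 211 CPM with CXCL10. The CXCL10 libraries fell on both sides of the tightly grouped controls, with a log2 fold change of 0.09 ± 0.13 (interval -0.19 to 0.36). GSS, glutathione synthetase, had -0.05 ± 0.13. Leaving out CXCL10 replicate 1 or 3 gave 0.03 and 0.18 for GSR, and -0.12 and -0.0027 for GSS.

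Enzymes of the pentose phosphate pathway, which supplies the NADPH for both glutathione and thioredoxin reduction, did not pass the test. TALDO1, transaldolase (chromosome 11, 747415 to 765012), measured 406, 393 and 488 CPM in controls and 409, 311 and 342 CPM with CXCL10. CXCL10 replicate 1 lay among the controls, and the log2 fold change was -0.28 ± 0.14 (adjusted p = 0.702 by edgeR) and -0.17 without control replicate 4. PGD, the 6-phosphogluconate dehydrogenase whose promoter holds the element, had -0.03 ± 0.13, and TKT, transketolase, had 0.002 ± 0.13.

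In the thioredoxin system the small carrier TXN had one of the lowest p-values of all the members. TXN (chromosome 9, 110243810 to 110256507) measured 417, 379.8 and 616 CPM in controls and 387, 253 and 339.5 CPM with CXCL10. The highest library was control replicate 4 and the lowest CXCL10 replicate 3, while CXCL10 replicate 1 lay between controls 1 and 3. The log2 fold change of TXN was -0.53 ± 0.19 (interval -0.94 to -0.12, adjusted p = 0.683 by edgeR), -0.28 without control replicate 4 and -0.33 once each library's trend with gene length had been removed. Its mitochondrial counterpart TXN2 had -0.23 ± 0.16, and -0.08 without control replicate 4. The reductases that recharge them had 0.11 ± 0.14 for the cytosolic TXNRD1, from 124 to 174 CPM, and -0.19 ± 0.14 for the mitochondrial TXNRD2, from 30.5 to 40.4 CPM. With single libraries left out TXNRD1 ran from 0.02 (CXCL10 replicate 4) to 0.25 (CXCL10 replicate 1), and TXNRD2 from -0.30 (CXCL10 replicate 1) to -0.11 (CXCL10 replicate 3). TXNIP, which binds and blocks thioredoxin and responds to glucose, measured 777, 827 and 594 CPM in controls and 848, 909.6 and 749 CPM with CXCL10. Control replicate 4 was its lowest library, so its log2 fold change of 0.19 ± 0.15 was 0.06 without that library.

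Of the 6 peroxiredoxins, the thiol peroxidases that clear hydrogen peroxide, 5 lay below 0, and their median log2 fold change was -0.19. It was -0.14 without control replicate 4, -0.072 with the length trend removed and -0.066 with both. Their reads summed to 1287, 1311 and 1432 CPM in controls and 1265, 1119 and 1148 CPM with CXCL10, so that the sums did not overlap and CXCL10 replicate 1 lay just under control replicate 1. PRDX6 alone made up 456 to 603 CPM of the sum, which was not set beside sums of other genes. Taken singly, each of the 6 genes had groups that overlapped (6.48% of all genes did not overlap and were lower). PRDX4, the member of the endoplasmic reticulum (chromosome X, 23664262 to 23686397), measured 119.7, 118 and 191 CPM in controls and 122, 96.2 and 101 CPM with CXCL10. Control replicate 4 alone stood high, and the log2 fold change was -0.42 ± 0.18 (adjusted p = 0.683 by edgeR) with it and -0.15 without it. PRDX6 (chromosome 1, 173477330 to 173488815), the highest of the family per length, measured 551, 528 and 603 CPM in controls and 555, 464 and 456 CPM with CXCL10, and its log2 fold change was -0.19 ± 0.13. PRDX1, a main cytosolic member and NRF2 target, had its highest value in control replicate 3 and not in control replicate 4, with a log2 fold change of -0.19 ± 0.13 that was -0.26 without control replicate 4. It was -0.10 without control replicate 3 and -0.05 with the length trend removed. The gene MMACHC on the opposite strand shares 25.2% of the PRDX1 exon length, so the PRDX1 level is a lower estimate. PRDX5, found in mitochondria, peroxisomes and cytosol, had -0.32 ± 0.16, or -0.17 without control replicate 4 and -0.13 with the length trend removed. PRDX2, a cytosolic member, had -0.15 ± 0.14 and ran from -0.27 to -0.07 with single libraries left out (CXCL10 replicates 1 and 3). The mitochondrial PRDX3, the family member above 0, had 0.04 ± 0.12 at 163 to 187 CPM and ran from 0.0027 to 0.10 (control replicates 1 and 3). PRDX3 has 3.38 kb of annotated exon, and the 5 that lay below 0 have 0.86 to 2.31 kb. Of all tested genes, 67.3% of those under 2.5 kb lay below 0, and 38.9% of the longer ones.

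Among glutathione peroxidases, superoxide dismutases and catalase, 3 of 5 genes had an unadjusted p under 0.05, all lower (4.65% of all genes were), and none passed after adjustment. That count was 0 without control replicate 4, where SOD1 had an unadjusted p of 0.0502 by edgeR. It was 1 without CXCL10 replicate 3 or without CXCL10 replicate 4. The count stayed at 3 without control replicate 1, control replicate 3 or CXCL10 replicate 1 (4.27%, 5.12% and 7.01% of all genes). With the length trend removed it was 2, SOD1 and SOD2 (3.39% of all genes). SOD1, the cytosolic copper and zinc superoxide dismutase (chromosome 21, 31659622 to 31668931), had the lowest p of all members. It measured 181, 179 and 238 CPM in controls and 157, 141 and 149 CPM with CXCL10, so that every control exceeded every CXCL10 library. The log2 fold change of SOD1 was -0.42 ± 0.14 (interval -0.72 to -0.12, adjusted p = 0.683 by edgeR), -0.27 without control replicate 4, -0.38 without CXCL10 replicate 3 and -0.30 with the length trend removed. GPX1 (chromosome 3, 49357176 to 49358358) measured 1540.5, 1439 and 2448 CPM in controls and 1623, 1135 and 1293 CPM with CXCL10. CXCL10 replicate 1 exceeded control replicates 1 and 3, and the log2 fold change was -0.42 ± 0.19 (adjusted p = 0.693 by edgeR) with all libraries and -0.14 without control replicate 4. GPX4 (chromosome 19, 1103926 to 1106791) measured 380.4, 355 and 478 CPM in controls and 368, 274 and 280.3 CPM with CXCL10. Only CXCL10 replicate 1 reached the control range, and the log2 fold change of GPX4 was -0.39 ± 0.15 (adjusted p = 0.683 by edgeR) and -0.25 without control replicate 4.

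The remaining enzymes of that group did not share the pattern of control replicate 4. SOD2, the mitochondrial manganese dismutase and a target of inflammatory signalling, ranged from 151 to 187 CPM in controls and from 136 to 176 CPM with CXCL10, and its log2 fold change was -0.16 ± 0.14. Its difference was -0.31 with the length trend removed (unadjusted p = 0.0262, adjusted p = 0.845 by edgeR) and -0.08 scaled by library size alone. That removal took the union of all annotated exons, 18.1 kb for SOD2, as the gene's length. With the trend kept, the unadjusted p of SOD2 by edgeR was 0.268. With single libraries left out, SOD2 ran from -0.28 without CXCL10 replicate 3 to -0.07 without control replicate 3, with -0.09 without CXCL10 replicate 1. CAT, the peroxisomal catalase, measured 68.8 to 75.5 CPM in controls and 73.7 to 82.4 CPM with CXCL10, with a log2 fold change of 0.12 ± 0.13 and 0.17 without control replicate 4.

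**Figure D3:**
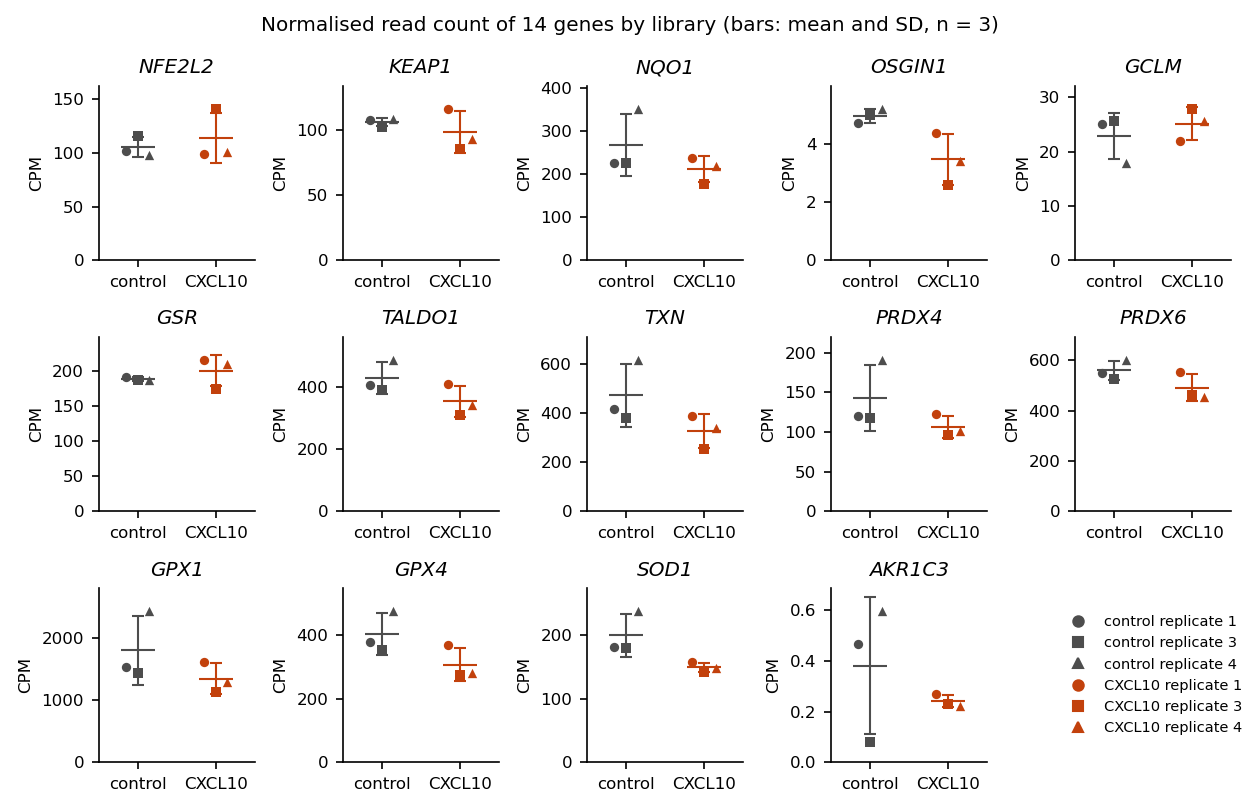
Normalised read count (CPM, axes from 0) of 14 members in each library, grey for control and orange for CXCL10, with the marker shape giving the replicate number and bars giving mean and SD (n = 3). For TXN, GPX1, PRDX4 and NQO1 the grey triangle, control replicate 4, stands above all other points, while in SOD1 and OSGIN1 all grey points lie above all orange ones.

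The members' differences were arranged by library and by exon length. Control replicate 4 was the highest library for 15 of 31 members (25.8% of all genes) and CXCL10 replicate 3 the lowest for 18 of 31 (19.5% of all genes). The mean deviation of the members from the mean of all libraries was 0.03, 0.00 and 0.17 on the log2 scale in control replicates 1, 3 and 4 and 0.04, -0.14 and -0.10 in CXCL10 replicates 1, 3 and 4. CXCL10 replicate 1 therefore lay slightly above control replicates 1 and 3. Exon length was the union of all annotated exons, so genes with long alternative exons, such as SOD2 at 18.1 kb, count as longer. All 10 members with under 2.5 kb of exon lay below 0, with a median log2 fold change of -0.36, beside -0.15 and 67.3% below 0 for the 4127 tested genes of that length. Of the 21 longer members 11 lay below 0, with a median of -0.01, beside 0.06 and 38.9% for the 12404 longer genes. With the length trend of each library removed, these medians were -0.18 for the shorter and -0.08 for the longer members. Over all tested genes of any length the median was then 0.006. In that fit 4 members had an unadjusted p under 0.05, all lower (3.39% of all genes were, and 2.34% were higher), namely SOD1, TXN, OSGIN1 and SOD2. With control replicate 4 left out as well, OSGIN1 and SOD2 were the 2 such members (1.43% of all genes). SOD2 had an unadjusted p of 0.268 by edgeR with all libraries and the trend kept. With no filter on low counts, 0.444% of all genes were called and 0 members were. How far the high ribosomal share and short-gene excess of control replicate 4 take part in the members' lower values was not tested beyond these fits.

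**Figure D4:**
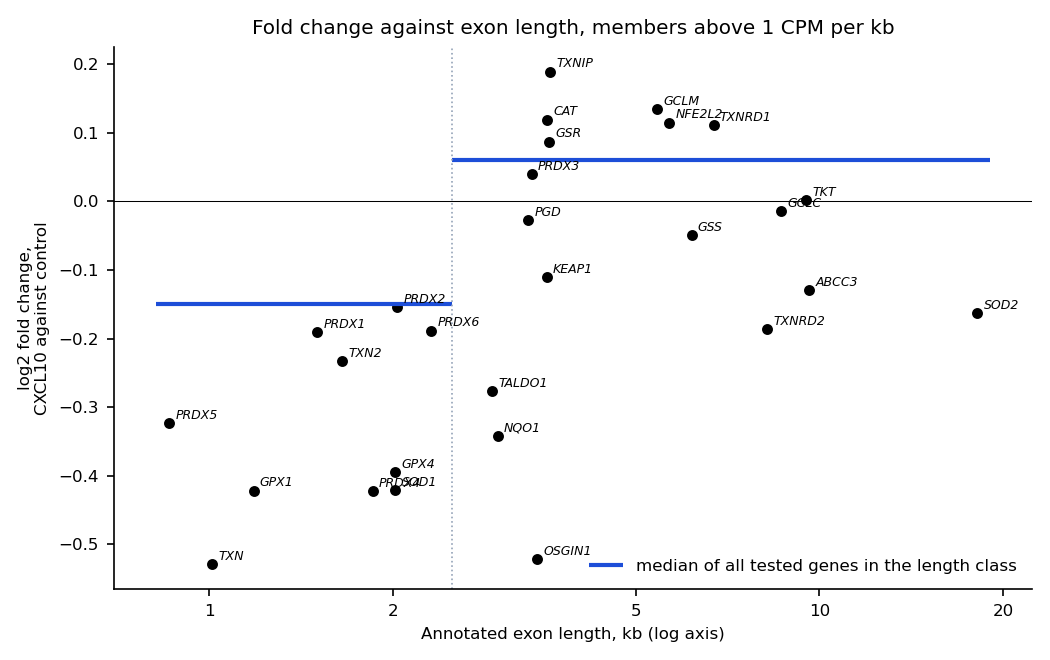
Log2 fold change of each member above 1 CPM per kb against its exon length on a log axis, taken as the union of all annotated exons. Blue lines give the median of all tested genes below and above 2.5 kb (dotted line). All 10 shorter members lie below 0, where the median of all genes is -0.15, and the longer members scatter around 0.

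Other genes of the pathway, from a list of 40 that leaves out the members above, lay on both sides of 0. All 40 were tested, 0 were called, 24 lay above and 16 below 0, and the median log2 fold change was 0.033. HMOX1, the haem oxygenase that NRF2 induces, averaged 111 ± 6.50 CPM in controls and 109 ± 10.3 CPM with CXCL10 (SD, n = 3 each), a log2 fold change of -0.02 ± 0.13. The malic enzyme ME1, which also supplies NADPH, had 0.01 ± 0.13. SLC7A11, the cystine importer, had 0.03 ± 0.19, and SQSTM1, which sequesters KEAP1 into autophagosomes, had 0.28 ± 0.21 and 0.04 without control replicate 4. The lowest p-values belonged to GSTO1, an omega-class glutathione transferase, and to the ligase components RBX1 and CUL3, all with an adjusted p of 0.683 by edgeR.

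These 3 genes, named for their low p, had groups that did not overlap, RBX1 and GSTO1 lower (6.48% of all genes were) and CUL3 higher (5.76%), and none passed the test. RBX1, the RING subunit, measured 106, 102 and 123 CPM in controls and 92.7, 74.0 and 81.0 CPM with CXCL10, and its log2 fold change was -0.41 ± 0.14, or -0.32 without control replicate 4. CUL3, the scaffold that joins KEAP1 to RBX1, measured 38.9, 37.0 and 21.8 CPM in controls and 43.6, 57.1 and 46.1 CPM with CXCL10, and its log2 fold change was 0.59 ± 0.20, or 0.37 without control replicate 4. GSTO1 measured 381, 373 and 599.6 CPM in controls and 347, 281 and 305 CPM with CXCL10, and its log2 fold change was -0.54 ± 0.18, or -0.27 without control replicate 4.

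Among 40 other redox enzymes 37 were tested, 0 were called, 25 lay below 0, and the median log2 fold change was -0.135 (-0.028 without control replicate 4). The lowest p-values belonged to PARK7 (DJ-1, a redox-responsive chaperone), SELENOW (a small selenoprotein) and GLRX2 (a mitochondrial glutaredoxin). PARK7 averaged 437 ± 63.7 CPM in controls and 343 ± 12.3 CPM with CXCL10 (SD, n = 3 each), a difference of -0.35 ± 0.13 on the log2 scale with an adjusted p of 0.683 by edgeR. SELENOW had -0.34 ± 0.16 and GLRX2 -0.31 ± 0.15, and without control replicate 4 both had -0.15.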

How the data were processed

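Polyadenylated RNA of 6 libraries was sequenced after a stranded mRNA ligation kit, per the labels. The deposited values are raw read counts per gene name. The authors used featureCounts 2.0.6 with GENCODE 30 exons (hg38), per the file headers. Trim Galore, STAR and Subread are named in the submitters' processing notes, with no version stated. Both mates of a fragment were counted, strand was not used, and reads over several genes or places were left out, per the file headers. This lowers overlapping genes and close copies.

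Differences were tested here on all 16531 genes that pass edgeR's filterByExpr, with TMM factors and a quasi-likelihood fit on the group (edgeR 4.0.16, R 4.3.3), Benjamini-Hochberg adjustment and a threshold of 0.05. CPM use the TMM-scaled totals. SE and 95% intervals derive from the fitted fold change and its F statistic. Alternatives were other scalings and filters, DESeq2 1.42.0, limma-voom (limma 3.58.1), a replicate block, halved counts, removal of each library's length trend, and each library left out. No 2 libraries were identical. Values in every library are given for NFE2L2, KEAP1, NQO1, and per role the member with the lowest p and the one highest per length, plus members with an unadjusted p under 0.05. Of other pathway genes, HMOX1, SLC7A11, ME1, SQSTM1 and the 3 with the lowest p per list are named, and 1 further gene of the rule is not reported here. TXNIP, AL121758.1 and other genes beyond this rule were chosen after their values were seen. Members and lists were chosen with earlier results of these data known, and the length boundary of 2.5 kb was set after the data were seen.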

Additional observations from a re-analysis of the deposited data

How the results depend on the processing

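The number of members called was 0 in each direction under every alternative run. Among the 30869 genes kept when low counts were not filtered, 45 were called higher and 92 lower by edgeR, with 0 members (lowest adjusted p = 0.0547, for TXN) and 1 other pathway gene, GSTO1, lower. The 6 members lower at an unadjusted p under 0.05 became 3 scaled by library size alone (2.46% of all genes), 2 with the length trend removed and control replicate 4 left out (1.43%), and 0 to 11 with single libraries left out. That count was 8 with no filter on low counts (1112 of 30869 genes). It was 5 with limma-voom (707 of 16531), with at least 1 CPM in 3 libraries (681 of 13353) and with halved counts (727 of 14745). The median log2 fold change of -0.154 became -0.06 with the length trend removed and control replicate 4 left out. In that fit 23 of 31 members lay below 0, beside 49.4% of all genes. Small differences changed sign. TKT (0.002) had -0.0032 with DESeq2's size factors and with DESeq2, -0.0037 with upper-quartile factors, -0.0054 with limma-voom, -0.0053 with the replicate block, -0.08 with the length trend removed and -0.1 with that and control replicate 4 left out, where GCLM had -0.04. Scaled by library size alone, GCLC, GSS and PGD had 0.07, 0.03 and 0.05. With single libraries left out, values ran from -0.06 to 0.21 for NFE2L2, -0.11 to 0.14 for GCLC, -0.0092 to 0.24 for GCLM, -0.12 to 0.06 for PGD, -0.11 to 0.07 for TKT and -0.15 to 0.37 for AKR1C1. The cause was not tested. The labels do not say whether same-numbered libraries share more than a number, and correlations of their deviations were 0.03, 0.02 and -0.05. With 3 libraries per group and control replicate 4 apart from the rest, these correlations cannot settle that. With the replicate block edgeR called 0 members, as without it. The AKR1C genes had at most 22 reads per library, and their intervals were the widest of the tested members.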

Other observations

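TRAC, the constant region of the T cell receptor alpha chain, measured 216 to 279 CPM in these THP-1 libraries, while CD3D, CD3E and CD3G had at most 10 reads in any library. CD68, a lysosomal protein and usual macrophage marker, had 0 to 5 reads per library, and AC016876.2 and AC016876.1 together share 85.6% of its exon length, as AL121758.1 shares 85.0% of that of SRXN1.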
